A study of Mus musculus with 4 samples.

Results

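Acyl-CoA thioesterases are the enzymes that split fatty acyl-CoA into free fatty acid and coenzyme A, and 10 of their genes (Acot1, Acot2, Acot3, Acot4, Acot7, Acot8, Acot9, Acot11, Acot12 and Acot13) were followed here in cultured mouse adipocytes with and without normal Lgr4. Members were chosen by name as a gene family, with earlier results of these data known. Every probe set that names 1 of these genes and no other was used. That gave 15 probe sets out of 34945 naming 1 gene, and 10 of 18193 genes. Acot2, Acot4 and Acot11 were read by 2 probe sets each, Acot12 by 3 and the other 6 genes by 1.

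Stromal vascular cells, the non-fat cells of adipose tissue, came from epididymal white fat of 4-month-old male mice that were either wild-type or Lgr4 homozygous mutant. Lgr4 is a receptor for R-spondins that strengthens Wnt signalling, and the design asked whether its loss favours differentiation toward brown-like adipocytes. Cells of both genotypes had bFGF in their growth medium and were induced for 48 h with insulin, isobutylmethylxanthine, 1 µM dexamethasone, 50 nM T3 and 5 µM troglitazone, then kept for 6 days with insulin, T3 and troglitazone. Each genotype had 2 arrays, called biological replicates in the labels, so 4 arrays in all were compared. Troglitazone, an agonist of PPAR gamma, was therefore present in the wild-type controls too. The labels do not say what the Lgr4 mutation is or whether the replicates came from separate animals.

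Thioesterases set the size of the acyl-CoA pool from the side opposite to the acyl-CoA synthetases. Their genes fall into structural groups that are not related by descent. Acot1 to Acot6 form a group with an alpha/beta-hydrolase fold whose products differ in location: Acot1 is cytosolic, Acot2 mitochondrial, and Acot3, Acot4 and Acot5 peroxisomal. The others have a hotdog fold: Acot7 in the cytosol, Acot8 in peroxisomes, Acot9 and its intronless copy Acot10 in mitochondria, Acot11 (also named Them1 or BFIT, for brown fat inducible thioesterase), the acetyl-CoA hydrolase Acot12 and the mitochondria-associated Acot13 (Them2). Several genes of the first group are known targets of PPAR alpha in liver, and Acot11 is known in brown fat as a cold-induced enzyme that restrains fatty acid oxidation.

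Values are log2 signals after RMA, so a step of 1 is a doubling of signal. A gene was tested when its brightest probe set, by the mean of all arrays, exceeded a log2 signal of 6.13, and all 10 genes did. A call means an adjusted p under 0.05 in limma over all 13173 tested genes. Of the 10 thioesterase genes, 5 were higher in the mutant, 1 was lower and 4 did not pass, against 29.8% of all tested genes called (11.1% higher and 18.7% lower). The median log2 difference, mutant minus wild-type, was 0.30 over the 10 genes and -0.03 over all tested genes. The members called higher were Acot1, Acot2, Acot3, Acot4 and Acot7, and the member called lower was Acot11. Acot4 passed the signal filter only through its mutant level (wild-type mean 5.95), so it had to differ to be tested. These are bulk cultures, in which more cells of a type and more RNA per cell cannot be told apart, and adipocyte markers were higher in the same mutant cultures (8 of 8 tested). The count of members higher was 4 to 6 when any array was left out, while over all genes 2620 were higher without wild-type replicate 2 and 798 or 945 without mutant replicate 1 or 2 (1456 with all arrays), and 1081 or 1279 lower without those mutant replicates (2468 with all arrays).

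The 4 members that lie side by side on chromosome 12 (Acot1 to Acot4) were those with the larger rises, each more than 2-fold. Of all tested genes, 2.88% were called and at least 2-fold higher. Acot4 counts among the 4 although it was tested only because of its mutant level. Upstream sequences of these 4 genes and of Acot11, the member that was lower, are shown because these were the members with the larger rises and the fall; Acot7, also higher, has a window that held neither motif described here. They are the 250 bases before each start, 5′ to 3′ along the gene's strand, from RefSeq's annotation of GRCm38.p6: Acot2 at chr12:83987611-83987860, Acot1 at chr12:84009252-84009501, Acot4 at chr12:84038129-84038378 and Acot3 at chr12:84051894-84052143, all on the plus strand, and Acot11 at chr4:106805008-106805257 on the minus strand. Capitals mark the letters AGGTCA (the core of the element bound by PPAR and other nuclear receptors) or CCAAT (the core of the CCAAT box), on either strand; the motifs do not overlap.
Acot2 promoter: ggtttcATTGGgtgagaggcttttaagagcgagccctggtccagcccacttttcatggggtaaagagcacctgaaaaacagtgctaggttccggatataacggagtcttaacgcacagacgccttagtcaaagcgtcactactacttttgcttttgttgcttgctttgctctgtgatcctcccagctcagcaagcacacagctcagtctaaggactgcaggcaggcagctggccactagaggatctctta
Acot1 promoter: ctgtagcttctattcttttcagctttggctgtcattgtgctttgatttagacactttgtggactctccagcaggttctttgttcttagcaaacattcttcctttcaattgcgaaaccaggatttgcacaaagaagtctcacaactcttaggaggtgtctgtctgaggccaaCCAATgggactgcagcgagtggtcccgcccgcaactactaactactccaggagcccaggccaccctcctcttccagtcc
Acot4 promoter: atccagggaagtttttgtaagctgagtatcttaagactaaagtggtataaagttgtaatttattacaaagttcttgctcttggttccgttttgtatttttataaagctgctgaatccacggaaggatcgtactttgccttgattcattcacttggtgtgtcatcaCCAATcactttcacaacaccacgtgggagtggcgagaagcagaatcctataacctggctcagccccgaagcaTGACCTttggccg
Acot3 promoter: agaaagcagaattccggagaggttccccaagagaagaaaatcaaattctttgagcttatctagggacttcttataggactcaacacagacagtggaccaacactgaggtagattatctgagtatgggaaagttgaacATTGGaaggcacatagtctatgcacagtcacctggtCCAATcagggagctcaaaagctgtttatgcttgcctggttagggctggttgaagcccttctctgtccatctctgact
Acot11 promoter: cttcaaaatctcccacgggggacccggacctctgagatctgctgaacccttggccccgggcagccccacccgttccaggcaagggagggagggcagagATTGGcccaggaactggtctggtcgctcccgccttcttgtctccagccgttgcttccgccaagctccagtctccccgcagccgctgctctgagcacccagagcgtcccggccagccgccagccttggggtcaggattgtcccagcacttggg

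In the full RefSeq windows, which also hold 50 bases after the start, AGGTCA was found in 3 of the 9 members that have a window and CCAAT in 7, both strands searched. Among all 32851 windows of 300 bases, 16.3% held AGGTCA and 37.4% held CCAAT. The AGGTCA match of Acot4 lay 13 to 8 bases before the start, that of Acot3 lay after the start and that of Acot12 began 110 bases before it. The direct repeat AGGTCANAGGTCA, an arrangement bound by PPAR with RXR, was in 0 of the 9 members and in 0.0396% of all windows. RefSeq gave a further window for Acot3, shifted by a few bases, and another for Acot11, which held neither AGGTCA nor CCAAT. The 9 members thus had 11 windows. A member was counted if any of its windows matched, whereas the shares over all windows are per window.

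Acot2 encodes the mitochondrial enzyme of the cluster. Its brighter probe set, 1439478_at, gave 10.41 and 10.24 in the mutant pair against 9.11 and 9.07 in the wild-type pair. Both mutant arrays were above both wild-type arrays, by a log2 difference of 1.24 (SE 0.10, 95% interval 1.01 to 1.47, limma adjusted p = 6.55e-05), or 2.36-fold. The second probe set, 1422996_at, gave 6.34 and 6.21 for wild-type against 7.47 and 7.16 for mutant arrays. It also separated the genotypes, with a difference of 1.04 (95% interval 0.74 to 1.33, limma adjusted p = 0.00172 over all probe sets naming 1 gene).

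Acot1, the cytosolic paralog next to Acot2, had 1 probe set of its own, 1449065_at. It stood at 7.90 and 7.86 on mutant arrays against 6.37 and 6.51 on wild-type arrays, with no overlap. The rise was 1.44 (SE 0.097, 95% interval 1.22 to 1.66, limma adjusted p = 2.18e-05), or 2.71-fold, and 217 of the 13173 tested genes had a larger one. Acot1 and Acot2 are close copies, so a probe set named for either may also bind the other's transcript, and their rises are not independent measurements.

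Acot3, a peroxisomal long-chain thioesterase, had the largest difference of the family. Its probe set, 1422925_s_at, gave 9.08 and 9.25 in the mutant pair against 6.49 and 7.34 in the wild-type pair. The wild-type pair was farther apart (SD 0.599) than the mutant pair (SD 0.119), and the genotypes did not overlap. The rise was 2.25 (SE 0.23, 95% interval 1.72 to 2.78, limma adjusted p = 0.000248), or 4.75-fold, and 89 tested genes had a larger one. Leaving out wild-type replicate 1 or 2 gave 1.82 or 2.67. The suffix _s_at marks a probe set whose probes match more than a single transcript, so part of this signal may belong to a neighbouring copy.

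Acot4, known as a peroxisomal thioesterase for succinyl-CoA and other dicarboxylic acyl-CoAs, was near the signal filter in wild-type cells. Probe set 1422076_at measured 5.71 and 6.19 without and 7.27 and 7.22 with the mutation. All mutant values were higher, with a difference of 1.30 (SE 0.15, 95% interval 0.95 to 1.64, limma adjusted p = 0.000487), or 2.46-fold. Its wild-type mean of 5.95 lay below the filter, so the gene was tested only because of its mutant level and had to differ. The other probe set, 1422077_at, below the filter in overall mean, gave 4.98 and 4.89 for wild-type against 6.30 and 5.82 for mutant arrays, a difference of 1.12 (limma adjusted p = 0.00317 over all probe sets naming 1 gene). RMA compresses differences near background, so the size of these folds is not exact.

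**Figure D1:**
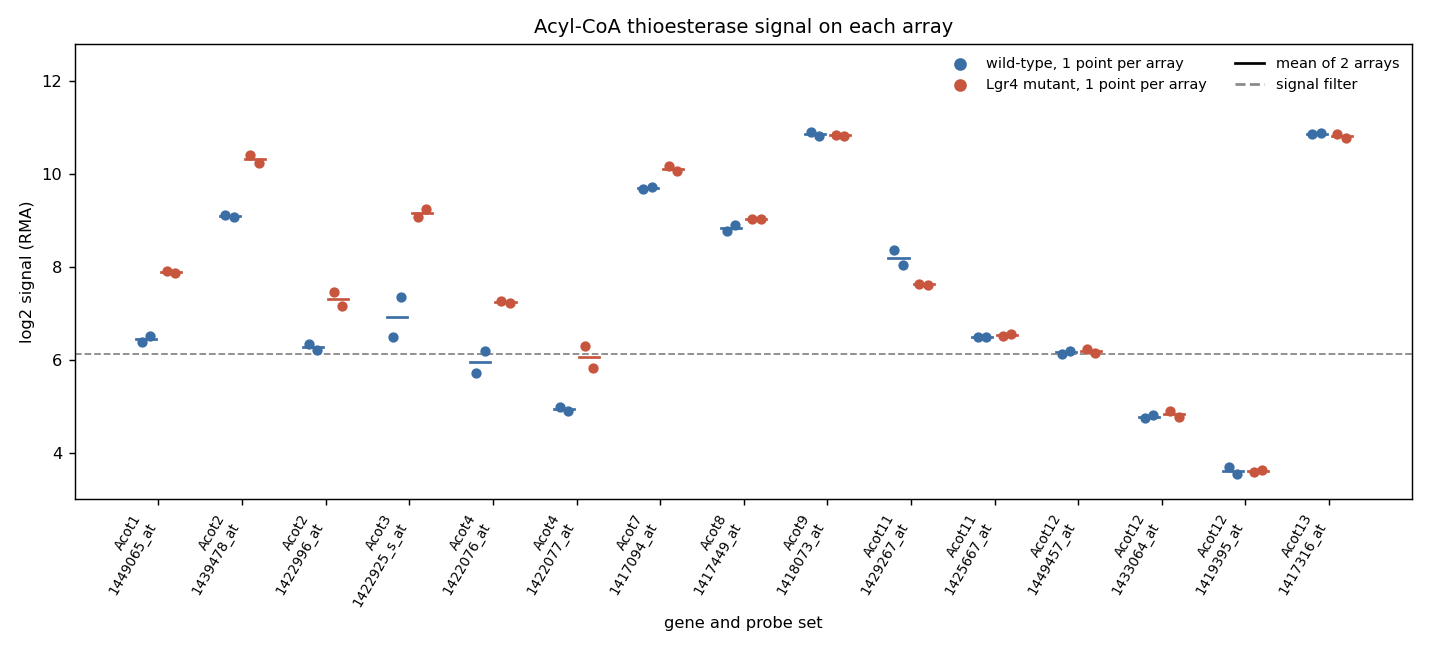
Log2 RMA signal (vertical axis) of each of the 15 probe sets naming a thioesterase gene (horizontal axis), with 1 point per array, short lines at the mean of the 2 arrays of a genotype and a dashed line at the signal filter of 6.13. Points of mutant arrays lie above those of wild-type arrays for the probe sets of Acot1, Acot2, Acot3, Acot4 and Acot7, below them for 1429267_at of Acot11, and close to them for Acot9, Acot12 and Acot13; heights of different probe sets are not comparable.

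Outside the cluster the 6 other members differed less: 1 was higher, 1 lower and 4 did not pass, so that the 2 called of 6 were a share near the 29.8% of all tested genes. Acot7, a cytosolic enzyme known for long-chain substrates such as arachidonoyl-CoA, stood at 10.16 and 10.06 on mutant arrays against 9.69 and 9.72 on wild-type arrays. The difference of 0.41 (SE 0.094, 95% interval 0.19 to 0.62, limma adjusted p = 0.0137) was a rise of 1.33-fold without overlap. With mutant replicate 1 removed the call was lost (0.36, limma adjusted p = 0.189), as it was with mutant replicate 2 removed (0.46, limma adjusted p = 0.0703).

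Acot11 was the only one of the 10 members to be called lower, and only by its brighter probe set. Probe set 1429267_at gave 7.63 and 7.61 in the mutant pair against 8.36 and 8.03 in the wild-type pair. Both mutant values were below both wild-type values, a difference of -0.57 (SE 0.12, 95% interval -0.85 to -0.30, limma adjusted p = 0.00918), or 1.49-fold lower, and 834 of the tested genes had a lower value. The second probe set, 1425667_at, measured 6.49 and 6.50 without and 6.51 and 6.55 with the mutation, a difference of 0.03 (95% interval -0.19 to 0.26, limma adjusted p = 0.854 over all probe sets naming 1 gene). The probe sets of Acot11 therefore disagreed, and with their mean in place of the brighter one the call was lost (-0.27, limma adjusted p = 0.0614). The labels and tables do not say which transcripts of the gene each of them reads.

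The remaining members were Acot8, Acot9, Acot12 and Acot13, none of which passed. Acot8, the broad-specificity thioesterase of peroxisomes, gave 8.78 and 8.91 for wild-type against 9.04 and 9.03 for mutant arrays. Its groups did not overlap, but the difference of 0.19 (95% interval -0.03 to 0.41) missed the threshold (limma adjusted p = 0.170). Removal of wild-type replicate 2 brought Acot8 past it (0.26, limma adjusted p = 0.0351).

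Acot9, a mitochondrial enzyme, stood at 10.85 and 10.83 on mutant arrays against 10.90 and 10.83 on wild-type arrays, and its 95% interval ran from -0.24 to 0.185. Acot13, found at mitochondria and partnered with a phosphatidylcholine transfer protein, measured 10.86 and 10.88 without and 10.87 and 10.78 with the mutation, with an interval from -0.26 to 0.17. Arrays of both genotypes were interleaved for Acot9 and Acot13, and the intervals leave room for changes of up to about that size in either direction. Acot12, the cytosolic acetyl-CoA hydrolase best known from liver, had its brightest probe set at 6.12 to 6.20 in wild-type and 6.15 to 6.23 in mutant cultures, next to the filter of 6.13. Its other probe sets lay below the filter, at 4.74 to 4.90 and at 3.54 to 3.68 over all arrays, so a level above background was not shown for Acot12.

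Counted by probe set, 7 of 15 were higher, 1 lower and 7 not called, against 15.5% of all 34945 probe sets called (5.96% higher and 9.56% lower). Among the 15, 3 lay below the signal filter: 1 of Acot4 and 2 of Acot12. In 7 of the 10 member genes the genotypes did not overlap, against 68.8% of all tested genes, a share near the background. Probe sets of a gene agreed in direction and call for Acot2 and Acot4, and disagreed in call for Acot11.

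**Figure D2:**
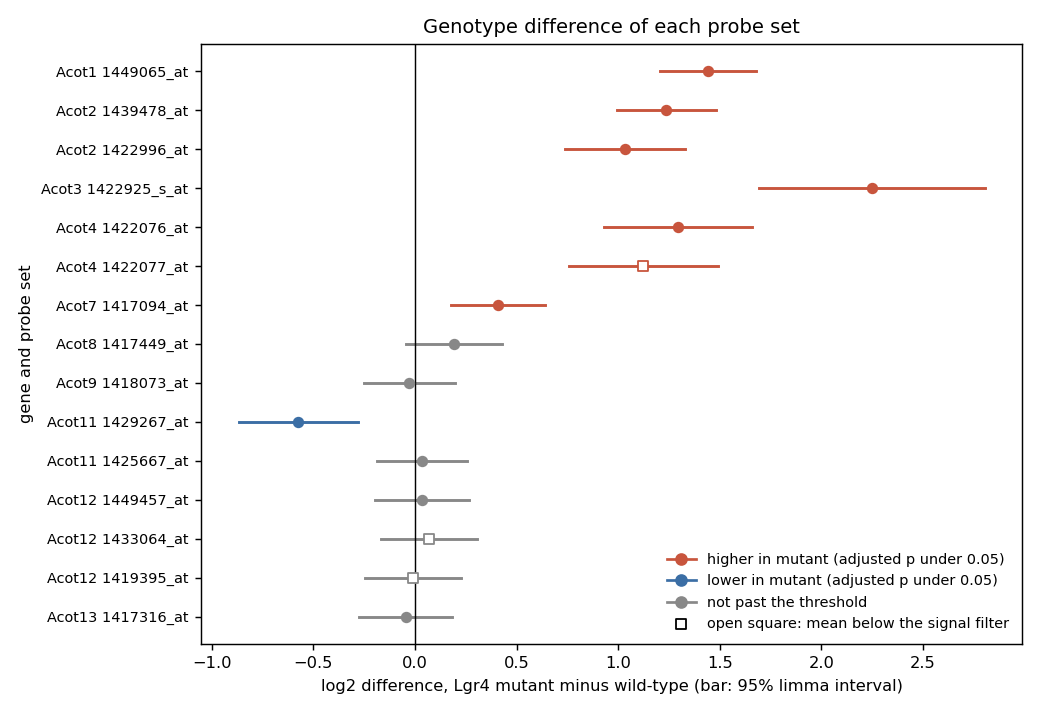
Log2 difference, Lgr4 mutant minus wild-type (horizontal axis), for each of the 15 probe sets (vertical axis) in the fit over all probe sets naming 1 gene, with bars for the 95% interval. The 6 probe sets of Acot1 to Acot4 lie between 1.04 and 2.25, Acot7 at 0.41 and 1429267_at of Acot11 at -0.57, while the intervals of the other 7 include 0; open squares mark probe sets below the signal filter.

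The position of the 4 strongly higher members was then set beside that of their neighbours, a comparison chosen after the values were seen. In RefSeq's gene order, chromosome 12 carries a run of 6 Acot genes: Acot2, Acot1, Acot4, Acot3, Acot5 and Acot6. Of these, 5 were higher in the mutant, beside 11.1% of all tested genes. They include the 4 members already described, and Acot1 and Acot2 are close copies, so these are not 5 independent results. Acot5, a peroxisomal enzyme of the same fold, gave 5.36 and 5.56 for wild-type against 7.56 and 7.37 for mutant arrays, a 4.01-fold rise (95% interval 1.74 to 2.26 on the log2 scale, limma adjusted p = 7.93e-06). Its wild-type mean of 5.46 lay below the signal filter, so it too was tested because of its mutant level, and the size of its fold is not exact. Acot6, at the end of the run, stood at 7.83 and 7.85 on mutant arrays against 7.72 and 7.65 on wild-type arrays, and its difference of 0.15 (95% interval -0.06 to 0.36, limma adjusted p = 0.245) did not pass; its second probe set differed by 0.04.

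None of the 3 nearest measured genes on each side passed: Numb (-0.27, limma adjusted p = 0.0804), Heatr4 and Riox1 before the run, and Dnal1, Pnma1 and Mideas after it, with differences from -0.27 to 0.08. Heatr4 and Pnma1 lay below the signal filter. In limma 0 of these 6 genes were called. The share called was 29.8% of all tested genes, and 20.7% in the fit without the filter, from which Heatr4 and Pnma1 were read. That is a difference that 6 genes cannot settle. Of the 6, 1, Numb, had an unadjusted p under 0.05. The interval of Acot6 did not reach those of its 5 neighbours in the run, whose lower ends began at 0.95.

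**Figure D3:**
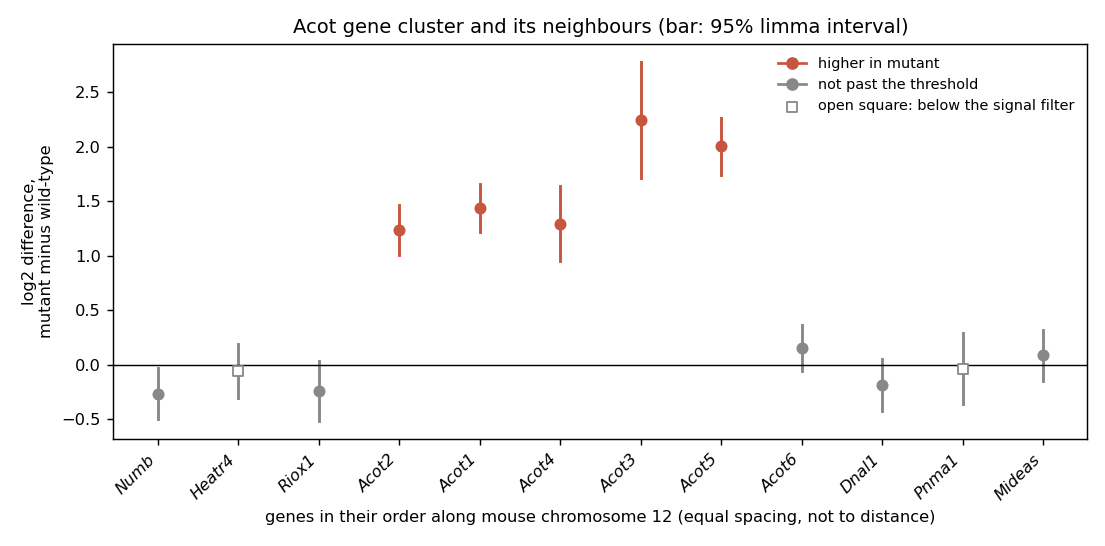
Log2 difference, Lgr4 mutant minus wild-type (vertical axis), of 12 genes in their order along chromosome 12 (horizontal axis, equal spacing), with bars for the 95% interval. The 5 genes from Acot2 to Acot5 lie between 1.24 and 2.25, and Acot6 and the 3 genes on each side of the run lie between -0.27 and 0.15.

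The genotype labels and the cell type were checked on the same arrays. All marker counts stand beside 11.1% of all tested genes higher and 18.7% lower. The Lgr4 probe set 1433891_at measured 8.65 and 8.20 without and 6.18 and 6.09 with the mutation (limma adjusted p = 1.45e-05). The mutant values lie next to the filter of 6.13, so the size of this fall is not exact, and the sources used here do not place the probe set relative to the mutation. A dim second probe set read 5.23 to 5.37 on all arrays. Of the adipocyte markers, 8 of 8 tested were higher in the mutant, and the mean log2 signal of the 9 on the array was 11.46 and 11.37 for the mutant against 8.82 and 8.87 for the wild-type, with Lep below the filter throughout. Of 8 brown adipocyte markers, 4 of the 6 tested were higher, and Prdm16 (0.19) and Dio2 (0.17) did not pass. Elovl3 and Ucp1, among those higher, had wild-type means of 6.07 and 5.43, below the filter. They were tested only because of their mutant level. The other 2 brown markers were below the filter in mean signal: Cidea, on every array, and Ppargc1a, which was higher by 1.91 in the fit without the filter (limma adjusted p = 4.813e-06, with 20.7% of all genes called). Macrophage markers were bright in all cultures (mean 12.48 and 12.49 in wild-type, 12.10 and 12.09 in mutant), with 5 of 10 lower. Smooth muscle and pericyte markers were lower for 6 of 8 and higher for 1, and progenitor and fibroblast markers lower for 4 of 8. Lymphocyte markers (0 of 3 tested called) and mesothelial and epithelial markers (0 of 5) did not pass, and of 7 endothelial markers 1 was higher and 1 lower. The part of the adipocyte, macrophage and stromal marker shifts in the thioesterase differences was not tested.

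The genes that make, bind, store and burn acyl-CoA were read from the same fit to place the thioesterases. Among acyl-CoA synthetases, which run the reaction opposite to that of thioesterases, 6 of 12 tested genes were higher and 2 lower. Of all tested genes 11.1% were higher and 18.7% lower, so the count lower was near the background. Acss2, which makes acetyl-CoA from acetate, rose by 3.33 and Slc27a1, a fatty acid transport protein with synthetase activity, by 2.41. Acsl4, which prefers arachidonate, fell by 0.50 and Acss1, the mitochondrial acetate enzyme, fell by 0.33. The count of synthetases called lower ran from 0 without mutant replicate 1 to 4 without wild-type replicate 2, and was 1 without wild-type replicate 1 or mutant replicate 2. It was also 1 without the signal filter, with probe sets averaged, after a second quantile normalization and with an intensity trend in eBayes; the adjusted p of Acss1 was 0.0483 in limma.

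Thioesterases release coenzyme A, and of 15 tested genes of coenzyme A synthesis, transport and breakdown 7 were higher, 0 lower and 8 did not pass, beside 11.1% of all tested genes higher. Nudt7, a peroxisomal hydrolase of coenzyme A, rose by 1.82 and the pantothenate kinase Pank3, which starts coenzyme A synthesis, by 1.23. In the fit without the signal filter, which called 20.7% of all genes, 1 gene of the list was lower: Vnn1, a pantetheinase, which fell by 0.93. Among acyl-CoA binding proteins, 3 of 5 were higher, led by Acbd4 (1.74) and Dbi (1.32), and Acbd3 was lower (-0.49), a call that ended without either mutant replicate.

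Most genes of fatty acid oxidation, which uses up the acyl-CoA pool, were higher, beside 11.1% of all tested genes. In mitochondria 16 of 17 were higher and 0 lower, led by Cpt2 (1.82) and Acadl (1.74), with a median difference of 1.55. With probe sets averaged, 1 gene of this list was lower. Cpt1a, which commits long-chain acyl-CoA to the mitochondrion, did not pass (-0.20). In peroxisomes, where Acot3, Acot4, Acot5 and Acot8 act, 13 of 17 were higher and 0 lower, with a median of 0.63. The leading genes were the thiolase Acaa1b (4.33, from a wild-type signal below the filter) and the peroxisome division protein Pex11a (1.85). Without wild-type replicate 2, 1 gene of the peroxisomal list was lower.

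Among other genes known as PPAR targets, 10 of 11 tested were higher, beside 11.1% of all tested genes. They were led by the lipid droplet protein Cidec (3.96) and Gpd1 (3.74), and the list had a median of 1.26. Cidec and Fabp4 of this list, and the receptor gene Pparg, were also counted among the adipocyte markers. Of the receptors and their partners, Pparg (2.92) and Rxrg (0.76) were higher out of 5 tested, and 4 were without wild-type replicate 2. Ppara, the receptor best known for driving these thioesterase genes in liver, lay below the filter in mean signal (5.86 and 5.91 for wild-type, 6.19 and 6.08 for mutant arrays), and its difference of 0.25 did not pass.

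Further acyl-CoA hydrolases outside the family members were sparse, and their count stands beside 11.1% of all tested genes higher. Of 5 tested, Acot5 and Hibch, which releases coenzyme A in valine breakdown, were higher (4.01-fold and 2.87-fold), a count of 1 without mutant replicate 1, where Acot5 dropped below the filter. Acot6 (0.15), the mitochondrial thioesterase Them4 (0.20) and the lysosomal Ppt2 (-0.07) did not pass. Them5 (0.19), Olah (0.01) and Baat (-0.07) lay below the filter on every array.

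**Figure D4:**
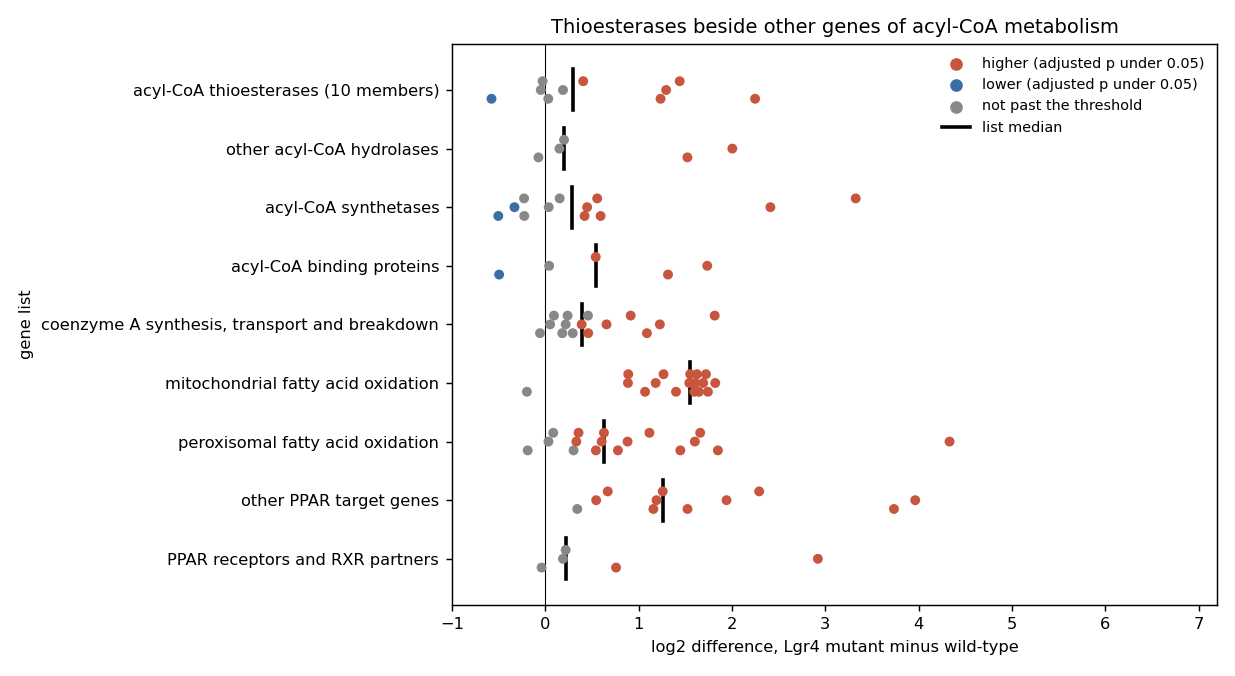
Log2 difference, Lgr4 mutant minus wild-type (horizontal axis), of the 10 thioesterase genes and of the tested genes of 8 lists (vertical axis), with 1 point per gene coloured by its call and a black bar at each list's median. The thioesterases have a median of 0.30 and reach from -0.57 to 2.25, whereas 16 of the 17 mitochondrial oxidation genes lie between 0.89 and 1.82, the list having a median of 1.55.

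By likeness of profile, measured as the Euclidean distance between log2 values centred on each gene's mean over the 4 arrays, the tested genes nearest to Acot3 were the adipogenic transcription factor Cebpa (distance 0.13), Pnpla3, a lipid droplet protein (0.23), and A530016L24Rik (0.30). Cebpa gave 9.37 and 10.25 for wild-type against 11.95 and 11.98 for mutant arrays, with the same wild-type array low as for Acot3. Nearest to Acot11 were Rbl1, a relative of the retinoblastoma protein (0.0218), Ak5 (0.0233) and Naip2 (0.0254), which differed between genotypes by -0.59, -0.60 and -0.57. These distances rest on only 4 arrays of 2 genotypes. Genes picked by a small distance share the pattern by construction. The low wild-type array of Cebpa and the differences of the genes nearest to Acot11 are therefore not further findings.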

How the data were processed

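RNA from 2 wild-type and 2 Lgr4 mutant cultures was labelled with an Affymetrix 3' kit and hybridised to 4 arrays, per the labels' protocols. The authors deposited 1 log2 signal for each probe set and array. Partek 6.6 and RMA are named in the submitters' processing notes; RMA subtracts background, equalises the arrays and summarises probes, and it compresses differences near background. That the scale is log2 was judged by the range of values, 2.86 to 15.2. Of 45101 probe sets, 64 were controls, 34945 named 1 gene in the platform's annotation, 932 named several and 9160 others none. Symbols were updated through the RefSeq table of GRCm38.p6, where 204 of the probe sets naming 1 gene were not matched.

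A gene was represented by its brightest probe set, tested if its mean over the arrays exceeded the 40th percentile of probe sets other than controls (6.13). The test was limma 3.58.1 under R 4.3.3 (lmFit, eBayes without trend; 2 residual and 6.21 prior degrees of freedom) with Benjamini-Hochberg adjustment over 13173 genes, threshold 0.05. A further fit over all 34945 probe sets, without filter, gave values for every member probe set, and one over all genes gave those of genes below the filter. The fit was tested on simulated data. P-values are 2-sided and reflect no more than the spread among these arrays, which could be technical; the number of arrays limits the precision. An exact permutation test of 2 against 2 cannot go below 0.333.

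Named genes were all members and their probe sets, Lgr4, up to 2 largest rises and falls past the threshold per context list, all measured other hydrolases, and the 3 nearest profiles to the members with the largest rise and fall; other names were chosen after their values were seen. The members and lists were chosen with earlier results of these data known. Alternatives were dropping the signal filter for genes and, for probe sets, keeping only those above it. Others were probe set averaging, renormalization, other variance priors, a replicate block and leaving out each array. Probe sets naming several genes were left out of the tests.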

Additional observations from a re-analysis of the deposited data

Results flagged for a closer look

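A probe set that names both Acot2 and Acot1, and so was left out of the comparisons, gave 8.78 and 8.57 in the mutant pair against 7.62 and 7.52 in the wild-type pair. Both mutant values lay above the wild-type values, by a log2 difference of 1.11, which was not tested. The only other left-out probe set with an Acot name, that of Acot10 and Acot9, differed by -0.01.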

How the results depend on the processing

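The calls of Acot1, Acot2, Acot3 and Acot4 kept their direction and stayed past the threshold under all 11 alternatives in fits that held them, with log2 differences of 1.37 to 1.51, 1.14 to 1.32, 1.82 to 2.67 and 1.05 to 1.54. With probe sets averaged, Acot4 fell below the signal filter and 4 members were called higher, and none (0) was called lower in limma. Leaving out each array gave 4 to 6 member genes higher (5 with all arrays) and 1 lower; by probe set, 6 to 7 higher and 0 to 1 lower, the 0 without mutant replicate 1 (1429267_at of Acot11, -0.59, limma adjusted p = 0.157) and without mutant replicate 2 (-0.56, limma adjusted p = 0.163). Over all genes, leaving out each array gave 798 to 2620 higher and 1081 to 3697 lower. Values near 0 changed sign: Acot9 became 0.0123 after a second quantile normalization and without wild-type replicate 1 (0.0087, with -0.0637 the lowest over left-out arrays); Acot12 became -0.0107 after the second quantile normalization, -1e-04 after centring on the median, and -0.0072 to 0.0735 over left-out arrays; 1425667_at of Acot11 became -0.0068 and -1e-04 under those normalizations; and 1419395_at of Acot12 ran from -0.0805 to 0.0591 over left-out arrays. The cause of these shifts was not tested. With the replicate number as a block, limma called 1802 genes higher and 3077 lower, and 5 members higher and 1 lower. The limma adjusted p of Acot3 was 2.09e-79 in that fit, against 0.000248 without the block. Calls of that size could hardly be lost there, so this alternative adds little support for them. Deviations of same-numbered arrays correlated at 0.16 over probe sets, which with 2 pairs does not show that numbers pair the cultures. Signal near background limits the folds of Acot4, Acot5 and Lgr4 and any statement on Acot12.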
